A study of Mus musculus with 8 samples.

Results

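Transgelins and smooth muscle actins are described here through 5 genes: Tagln, Tagln2 and Tagln3 on the one side, Acta2 and Actg2 on the other. They were chosen by name, and all 5 were among the 31053 genes of the deposited count matrices. Mice of the genotype Tagln-CreERt2;R26tdTomato carry a Cre recombinase that tamoxifen activates in cells using the Tagln promoter, and a tdTomato reporter. Every animal received tamoxifen at postnatal day 5, and lumbar and tail discs were cut up, digested and profiled by droplet single-cell RNA sequencing at day 10 (P10) or 8 weeks, with no untreated or Cre-free group. GEO lists 4 samples at each age, but each age came as 1 matrix with no map from cells to samples, so age and library cannot be told apart, no p-value between ages exists, and all intervals are exact 95% intervals of counting error alone. Muscle and vessels were trimmed off as far as possible and blood was washed out before digestion, which limits what the matrices say about the abundance of contractile and vascular cells.

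Transgelins are small calponin-family proteins that bind actin filaments. Tagln, also called SM22 alpha, marks smooth muscle and other contractile cells, Tagln2 is broadly expressed, including in blood and endothelial cells, and Tagln3 is mostly neuronal. Acta2 encodes the actin of vascular smooth muscle and of myofibroblasts, and Actg2 the actin of enteric and other visceral smooth muscle. Serum response factor, with its myocardin-type coactivators, binds CArG boxes in the promoters of many of these genes. The nucleus pulposus (NP) is the notochord-derived core of the disc, surrounded by the annulus and the cartilage endplates.

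The genes lie on different chromosomes, as positioned by GENCODE on GRCm38 (mm10): Tagln (ENSMUSG00000032085) at chr9:45929619-45936058 on the minus strand, Tagln2 (ENSMUSG00000026547) at chr1:172500047-172507380 on the plus strand, Tagln3 (ENSMUSG00000022658) at chr16:45711230-45724608 on the minus strand, Acta2 (ENSMUSG00000035783) at chr19:34241090-34255590 on the minus strand and Actg2 (ENSMUSG00000059430) at chr6:83512905-83536265 on the minus strand. The first 60 coding bases, from the ATG, are shown because the paralogs are alike enough there to raise the question of whether reads can be told apart. Capitals mark bases that differ from Tagln (for the transgelins) or from Acta2 (for Actg2) in an alignment of the whole coding sequences. Reference bases that a paralog lacks are skipped in its line. The Actg2 line is therefore out of step with the Acta2 line and runs past its 60 bases.
Tagln: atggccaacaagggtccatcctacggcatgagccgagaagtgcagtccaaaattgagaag
Tagln2: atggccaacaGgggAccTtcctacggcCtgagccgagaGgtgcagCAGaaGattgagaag
Tagln3: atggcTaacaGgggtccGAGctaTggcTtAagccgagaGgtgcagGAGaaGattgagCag
Acta2: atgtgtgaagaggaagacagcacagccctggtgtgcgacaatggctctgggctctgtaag
Actg2: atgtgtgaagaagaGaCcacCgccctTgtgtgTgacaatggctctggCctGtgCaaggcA
Tagln2 differs from Tagln at 9 of these bases and Tagln3 at 14. Over the whole coding sequence Tagln shares 69.3% of aligned positions with Tagln2 and 69.2% with Tagln3, and Acta2 shares 84.2% with Actg2 and 82.8% with the cytoplasmic actin Actb. In the last 500 bases of the transcripts, next to the site where 3' libraries are read, no stretch of 25 bases is shared among the 3 transgelins or between Acta2 and Actg2. Actg2 shares 14 such stretches there with the cardiac actin Actc1 and 4 with the skeletal actin Acta1, so low Actg2 counts in cells rich in those actins are uncertain. The stretches were taken at every base and can overlap, so they may form fewer, longer runs.

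Unique molecular identifiers (UMIs) numbered 143203550 in the P10 matrix and 115097999 in that of 8 weeks. After filtering, 6999 and 6342 cells were kept, with a median of 18300 and 14683.5 UMIs. Of 19 cell classes with fixed markers, 12 were found, and each is written "-like" because it was named from markers. A level is the sum of a gene's UMIs over the cells of a class, per 1000000 gene UMIs of those cells (CPM), where 1 UMI stands for 1 tagged transcript whatever its length. The NP-like class, with 305 cells at P10 and 2307 at 8 weeks, expressed 12 of the 13 NP markers at each age, at a summed level of 31184 and 27252 CPM. They fell into cluster 14 (192 and 2 cells), cluster 16 (58 and 1216), cluster 17 (7 and 932) and the cycling cluster 9 (48 and 157), and the NP comparison between ages therefore sets largely different clusters against each other. The 2 libraries shared 10 kept barcodes.

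Tagln was highest in mural-like cells, the pericytes and smooth muscle cells around vessels, at both ages. It reached 1101 CPM there at P10 (interval 1015 to 1192, 50 cells) and 1247 at 8 weeks (1113 to 1392, 31 cells). NP-like cells came second at P10, with 403 CPM from 2724 UMIs (388 to 419), which was 2.73-fold below the mural-like cells. At 8 weeks they had 77.4 CPM from 3408 UMIs (74.8 to 80.1), and the gap to the mural-like cells had widened to 16.1-fold. Without mural-like cells that carried at least 10 UMIs over markers of another class, the mural-like level was 1356 CPM at P10 and 1072 at 8 weeks. That left out 8 of 50 and 1 of 31 cells. Endothelial-like cells stood at 133 CPM at P10 and 265 at 8 weeks, so that they lay below NP-like cells at the first age and above them at the second. Skeletal muscle-like cells, led by the satellite cell genes Pax7, Myf5 and Myod1, had 76.2 CPM at P10 (55 cells). At 8 weeks only 2 such cells were found, too few for a level. Schwann-like cells had 36.4 CPM at P10, and every remaining class of at least 15 cells was below 17 CPM at both ages.

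Neutrophil-like cells, which are not known as a source of smooth muscle transcripts, gave a background for those low levels that was itself uncertain. They held 12.1 CPM of Tagln at P10 (6.04 to 21.6) and 3.52 at 8 weeks from 1 UMI, and 7 of the 11 UMIs of P10 lay in 1 cell. Without the 20 P10 cells and 14 cells of 8 weeks that carried at least 10 UMIs over markers of another class, the level was 3.14 CPM, from 2 UMIs, at P10 and 0 at 8 weeks. Chondrocyte-like cells, at 16.4 and 11.4 CPM, were not separable from neutrophil-like cells at P10, since the log2 ratio of those neighbours was 0.44 with an interval of -0.40 to 1.45. Without such marker-carrying cells in either class the P10 ratio was 2.32 (0.46 to 5.37), from 15.7 and 3.14 CPM. At 8 weeks, with the same cells left out, chondrocyte-like cells had 11.6 CPM and neutrophil-like cells 0 UMIs. The interval of that ratio began at -0.78, so the classes were not separable there. At least 1 Tagln UMI was present in 232 of the 305 P10 cells of the NP-like class (76.1%, median 17519 UMIs per cell) and in 1067 of the 2307 cells of 8 weeks (46.3%, median 15449), against 5 of 159 neutrophil-like cells at P10 (3.14%, median 3903) and 1 of 63 at 8 weeks (1.59%, median 3587). After each cell was thinned to 2000 UMIs the shares were 37.8% and 12.6% in NP-like cells, with 9 and 97 shallower cells left out, and 0.787% and 2.22% in neutrophil-like cells, with 32 and 18 left out.

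Acta2, like Tagln, was highest in mural-like cells at both ages, with NP-like cells second at P10 and, unlike for Tagln, also at 8 weeks. Of the 5 genes it was the most abundant in NP-like cells at each age. Mural-like cells held 3849.5 CPM at P10 (3687 to 4018) and 4079 at 8 weeks (3834 to 4335). NP-like cells held 1538 CPM at P10 from 10384 UMIs and 397 at 8 weeks from 17476 UMIs. Their shortfall against mural-like cells was 2.50-fold at P10 and 10.3-fold at 8 weeks. Without the mural-like cells that carried markers of another class, the mural-like level was 4873 CPM at P10 and 3439 at 8 weeks. The skeletal muscle-like cells of P10 had 1076 CPM of Acta2, a gene that immature muscle cells are known to use, and endothelial-like cells had 459.6 and 343 CPM. At 8 weeks NP-like and endothelial-like cells were close, with a log2 ratio of 0.21 (0.11 to 0.32). Of all actin UMIs from the 6 actin genes, Acta2 made up 17.2% in the NP-like class of P10 and 7.84% in that of 8 weeks, compared with 38.7% and 38.6% in mural-like cells. Macrophage-like cells held no Acta2 UMI at either age (0 of 15 cells, which allows up to 20% of cells with a UMI at a median depth of 8199 UMIs, and 0 of 39, up to 7.69% at 9810 UMIs); this limits detection at these depths and not the share of cells that use the gene.

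**Figure D1:**
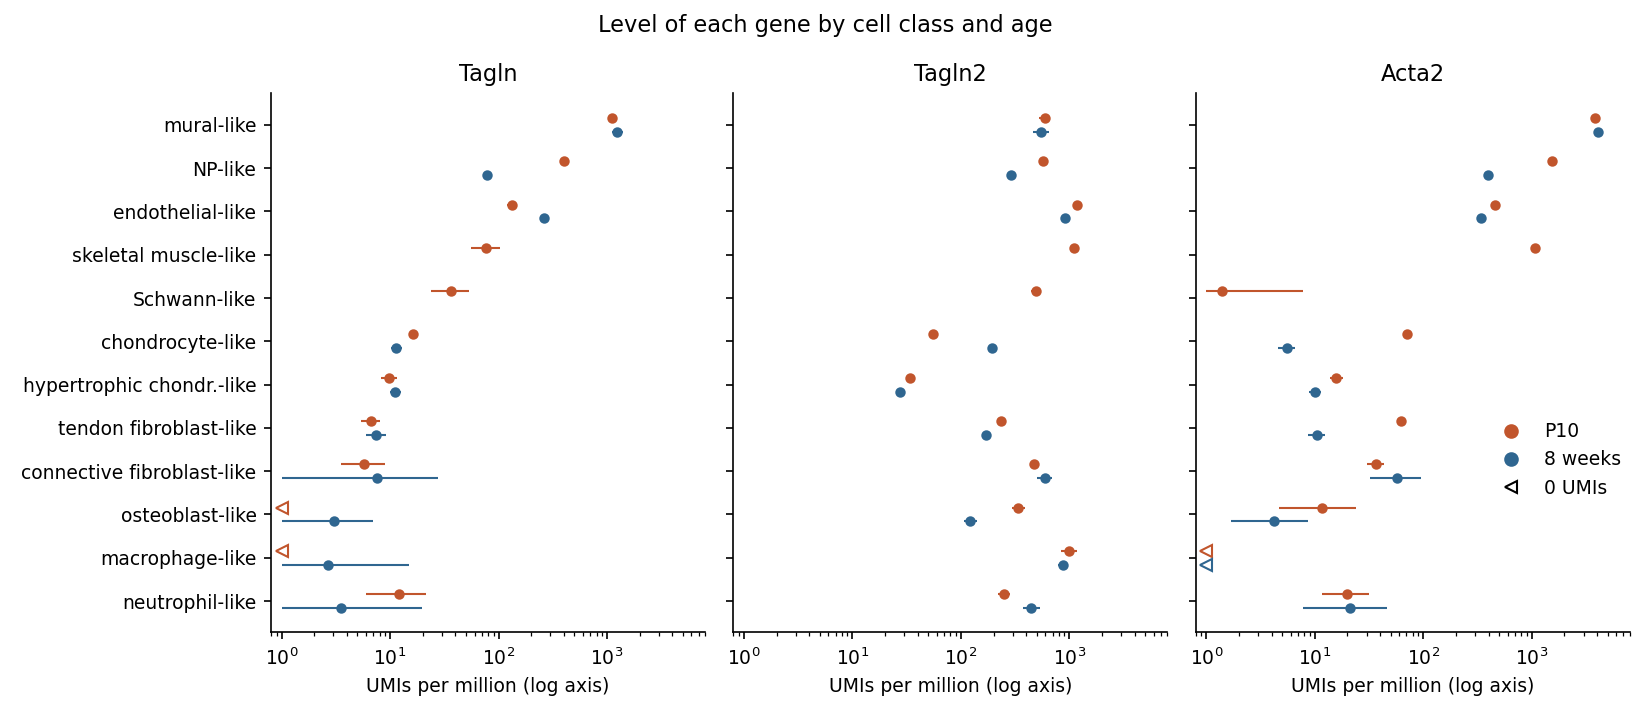
Level of Tagln, Tagln2 and Acta2 in each cell class with at least 15 cells, in CPM on a log axis. Points are summed counts of the class at P10 (orange) and 8 weeks (blue), lines are exact 95% Poisson intervals cut at 1, and open triangles at 1 stand for 0 UMIs. Mural-like cells were highest for Tagln and Acta2 at both ages, NP-like cells moved down between the ages in all 3 panels, and Tagln2 spread over nearly all classes.

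Tagln2 had a different distribution. Its highest level was in endothelial-like cells, at 1171 CPM at P10 (1130 to 1213) and 903 at 8 weeks (863 to 944), and at both ages macrophage-like cells, with 992 and 872 CPM, and at P10 skeletal muscle-like cells, with 1104 CPM, were not separated from them in order beyond counting error. Mural-like cells held 591 and 548 CPM. In NP-like cells the level was 572 CPM at P10 and 287 at 8 weeks. At P10 that was indistinguishable from mural-like cells (log2 ratio -0.05, interval -0.21 to 0.12), whereas at 8 weeks it was below them (-0.93, -1.17 to -0.68). Hypertrophic chondrocyte-like cells were lowest, at 34.2 and 27.6 CPM. Neutrophil-like cells served as the background class for Tagln and Acta2, although they held few UMIs of either. They held 251 and 447 CPM of Tagln2 and therefore give no background level for it.

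Tagln3 and Actg2 were close to absent from NP-like cells. Tagln3 gave 4 UMIs in the P10 NP-like cells and 3 in those of 8 weeks, and its highest level in any class with at least 15 cells was 1.62 CPM, in the tendon fibroblast-like cells of P10 (24 UMIs). No Tagln3 UMI was seen in mural-like cells at either age (0 of 50 cells, which allows up to 6% of cells with a UMI at a median depth of 7852 UMIs, and 0 of 31, up to 9.68% at 7259 UMIs). Actg2 gave 1 and 4 UMIs in NP-like cells and was concentrated in mural-like cells, at 149.96 CPM at P10 (119 to 186) and 154 at 8 weeks (109 to 210). Few cells carried it. At P10 its 82 UMIs lay in 13 of 50 mural-like cells, and at 8 weeks its 39 UMIs lay in 1 of 31. That single cell, with 12731 UMIs, also held 206 Acta2 and 58 Tagln UMIs.

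Set against each other, the transgelins had class-specific proportions. Tagln made up 65.1% of transgelin UMIs in mural-like cells at P10 (602 of 925) and 69.5% at 8 weeks (316 of 455). In NP-like cells its part was 41.3% at P10 (2724 of 6588, interval 40.2 to 42.5%) and 21.2% at 8 weeks (3408 of 16050, 20.6 to 21.9%). This proportion does not involve the scaling by total UMIs, and it was lower at 8 weeks by more than its counting intervals. It also varied among NP-like clusters. In the 192 P10 cells of cluster 14 Tagln exceeded Tagln2, with 1850 and 1274 UMIs. In cluster 16 they had 436 and 907 UMIs at P10 and 2265 and 7579 at 8 weeks. The part of cluster make-up in the NP difference was not tested. In endothelial-like cells the proportion went the other way between the ages, from 10.2% to 22.7%. In chondrocyte-like cells the proportion was 22.9% at P10 and 5.61% at 8 weeks, a difference that depended on clusters 7 and 24. Cluster 7 held 2757 of the 5302 Tagln2 UMIs of that class at P10, but 53 of its 1588 Tagln UMIs. Cluster 24 held 4427 of 4662 and 119 of 277 at 8 weeks. In tendon fibroblast-like cells the proportion was 2.75% at P10 and 4.22% at 8 weeks, and in the skeletal muscle-like cells of P10 6.46%. Of the smooth muscle actins, Actg2 contributed 3.75% and 3.63% of UMIs in mural-like cells but 0.00963% and 0.0229% in NP-like cells. Hypertrophic chondrocyte-like cells had the largest Actg2 proportion among classes with at least 100 smooth muscle actin UMIs, 14.1% and 17.3%, at levels of 2.60 and 2.10 CPM of Actg2. At 8 weeks those 50 UMIs lay in 10 of 1230 cells, 22 of them in 1 cell. The class also held 380 and 351 UMIs of Acta1, against 37 and 50 of Actg2. Acta1 shares sequence with Actg2 near the transcript end, so this proportion is uncertain.

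**Figure D2:**
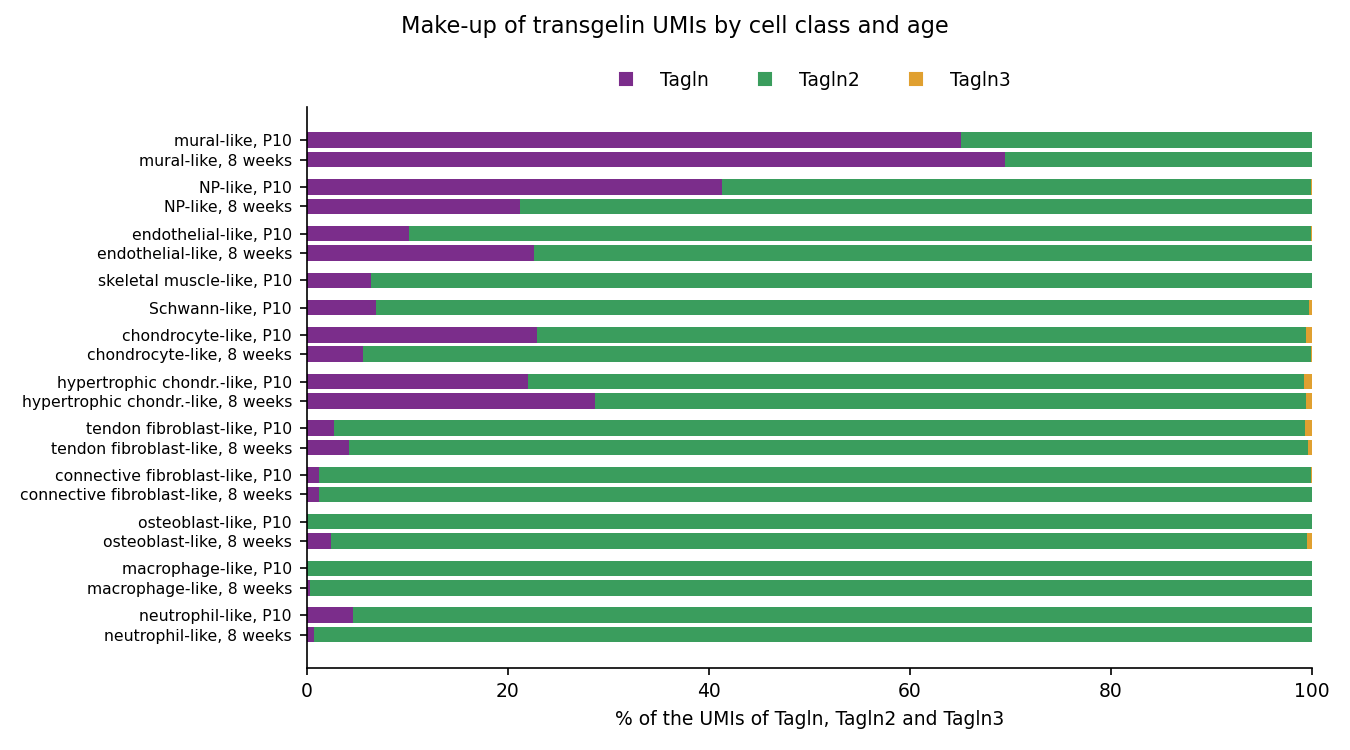
Percent of the summed UMIs of the 3 transgelins that came from Tagln (purple), Tagln2 (green) and Tagln3 (yellow), by cell class and age, for groups with at least 100 transgelin UMIs. Among whole classes, Tagln held the larger part only in mural-like cells, and its part in NP-like cells was 41.3% at P10 and 21.2% at 8 weeks. Within single clusters, which are not drawn, Tagln also exceeded Tagln2 at P10 in NP-like cluster 14 and chondrocyte-like clusters 2 and 5.

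All 3 measurable members were lower in the NP-like cells of 8 weeks than in those of P10, by different amounts. The log2 ratio was -2.38 for Tagln (-2.45 to -2.31), -1.95 for Acta2 (-1.99 to -1.92) and -0.99 for Tagln2 (-1.05 to -0.94). Tagln and Acta2 thus passed a 2-fold difference downward and Tagln2 fell just short of it. Among all 11322 genes with at least 100 UMIs in these cells, 2.86% were at least 2-fold lower at 8 weeks and 15.2% at least 2-fold higher. The median gene stood at 0.35, and relative to it the members' ratios were -2.74, -2.31 and -1.35. The cytoplasmic actins differed less in Actb (-0.31, 3926 and 3164 CPM) than in Actg1 (-1.22, 3498 and 1499.9 CPM).

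The difference was also present within clusters that held cells of both ages, although it was smaller in cluster 16. There Tagln was 243 CPM in 58 cells of P10 and 79.5 in 1216 cells of 8 weeks (log2 ratio -1.61), Acta2 1097 and 424 (-1.37) and Tagln2 506 and 266 (-0.93). In the cycling cluster 9, with median depths of 27340 and 25475 UMIs, Tagln was 239 and 55.0 CPM (-2.12), Acta2 1232 and 298 (-2.05) and Tagln2 929 and 473 (-0.97). Cluster 14, nearly all of it P10, had the highest NP levels, with 593 CPM of Tagln and 1976 of Acta2, but not of Tagln2, which was 408 CPM there. Cluster 17, nearly all of it 8 weeks, had 81.9, 370.5 and 262 CPM.

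Single NP-like cells varied widely. Among cells with at least 5000 UMIs, 278 at P10 and 1948 at 8 weeks, the Tagln level ran from 0 to 3689 CPM at P10 with a median of 174, and from 0 to 2333 with a median of 22.1 at 8 weeks. No Tagln UMI was found in 20.9% of these P10 cells and 48.6% of these 8-week cells, whose median depths were 18431.5 and 17597 UMIs. For Acta2 the medians were 941 and 210 CPM, and 47.5% and 10.9% of cells exceeded 1000 CPM. For Tagln2 the medians were 445 and 244 CPM, with 1.80% and 8.21% of cells at 0. The ranges of the 2 ages overlapped for all 3 genes, and the 8-week cells lay lower within them.

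**Figure D3:**
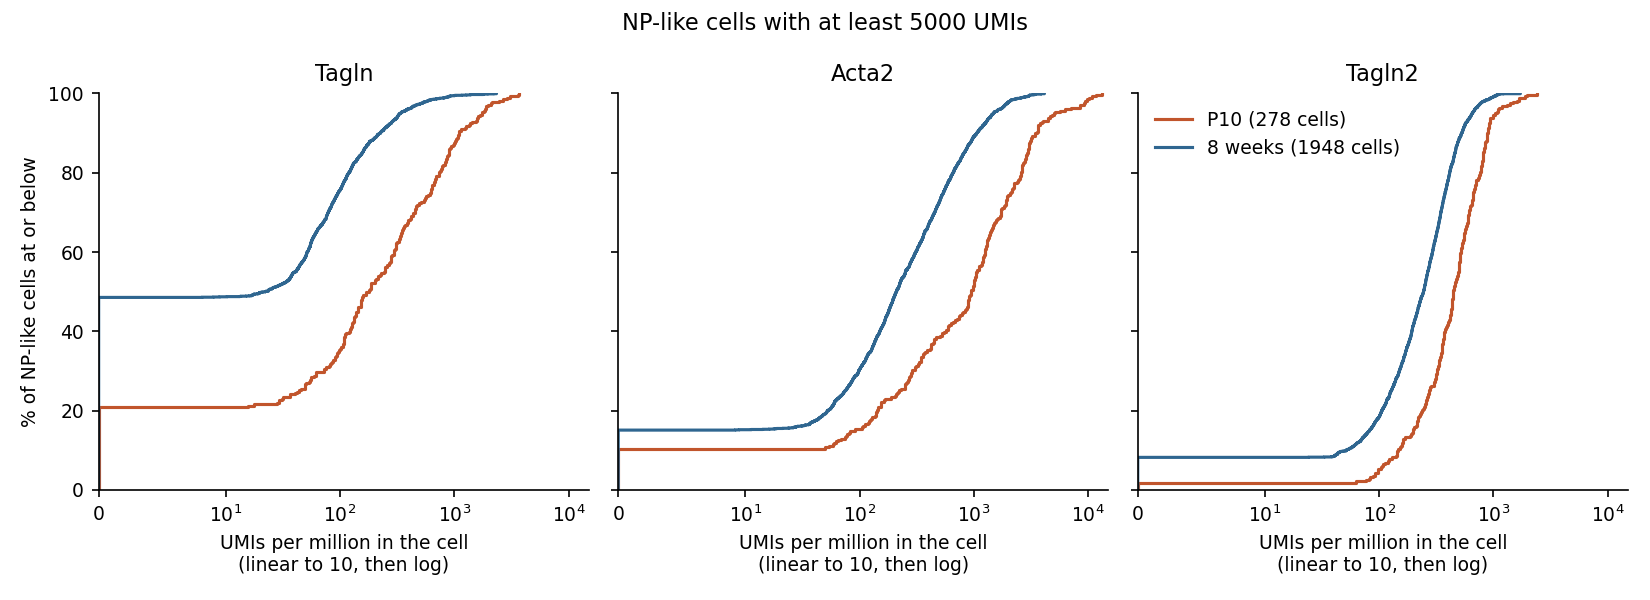
Cumulative percent of NP-like cells (at least 5000 UMIs) at or below each level, for Tagln, Acta2 and Tagln2 at P10 (orange, 278 cells) and 8 weeks (blue, 1948 cells). The horizontal axis is CPM in the cell, linear up to 10 and log beyond. The 8-week curve lies to the left of the P10 curve in each panel, with a Tagln median of 22.1 against 174.

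Markers of other classes were present in NP-like cells. Counting only markers found in at most 10% of the NP-like class, which leaves 1 of the 13 chondrocyte markers, at least 10 UMIs over those of another class were found in 8 of the 305 P10 cells and 35 of the 2307 cells of 8 weeks, and without them Tagln was 419.5 and 77.9 CPM and Acta2 1612 and 395. The 12 mural markers summed to 5083 CPM in the P10 NP-like cells, with 3 markers at 0, and to 3904 CPM at 8 weeks, with none at 0, against 9030 and 15238 CPM in mural-like cells. The 11 endothelial markers summed to 38.9 and 82.5 CPM in NP-like cells, with 3 and 0 at 0. The 13 chondrocyte markers summed to 14883 and 13238 CPM, with 0 at 0. The 10 hypertrophic chondrocyte markers summed to 3394 CPM at P10 and 20387 at 8 weeks, with 0 at 0, and the 7 erythroid markers to 2.22 CPM, with 4 at 0, and 169 CPM, with 1 at 0. The part of these markers in the NP ratios was not tested.

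In the other classes the members did not share one direction, as the plot of age ratios shows. In mural-like cells none of the 4 measurable members passed a 2-fold difference, where 12.4% of genes were lower and 10.8% higher by that much. The log2 ratios were 0.18 for Tagln (-0.02 to 0.38), 0.08 for Acta2 (-0.03 to 0.19), -0.11 for Tagln2 and 0.04 for Actg2. They rested in part on the 1 Actg2-bearing cell of 8 weeks, which also carried markers of another class. Without it Tagln had -0.04 and Acta2 -0.16 (-0.28 to -0.05). The remaining 30 cells had 0 Actg2 UMIs by construction, since the cell left out held all 39. That 0 therefore gives no difference from P10, where 1 cell held 29 of the 82 Actg2 UMIs. The Actg2 level of 8 weeks, and so its ratio, rested on that 1 cell. Without all cells carrying 10 UMIs of another class (8 of 50 at P10 and 1 of 31 at 8 weeks), the Tagln and Acta2 ratios were -0.34 and -0.50. The 13 chondrocyte markers summed to 28073 CPM in the mural-like cells of P10, with 0 at 0, and to 406 CPM at 8 weeks, with 4 at 0, and their part in these ratios was not tested. In endothelial-like cells 0 of 3 members passed 2-fold, where 2.92% of genes were lower and 6.80% higher. Tagln had a log2 ratio of 0.99 (0.80 to 1.19), just short of 2-fold and just past it in 5 alternatives (1.01 to 1.23), Acta2 -0.42 and Tagln2 -0.38. The 10% of endothelial-like cells with the most Tagln held 75.6% of its UMIs at P10 and 73.5% at 8 weeks. The mural markers summed to 2349 and 2589 CPM in these cells, with 0 of 12 markers at 0, and the chondrocyte markers to 14706 and 932 CPM. Their part in the Tagln level was not tested.

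**Figure D4:**
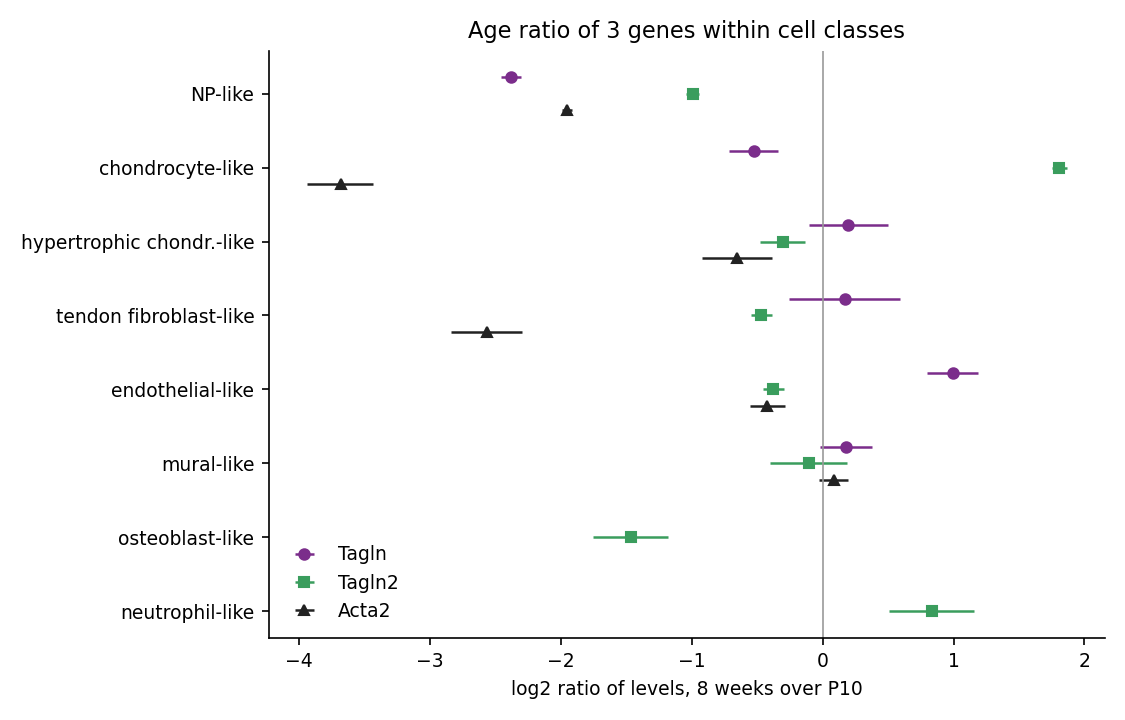
Log2 ratio of the level at 8 weeks over that at P10 within each class, for Tagln (circles), Tagln2 (squares) and Acta2 (triangles), with exact 95% intervals of counting error; genes with fewer than 100 UMIs in both ages together are not drawn. All 3 genes lie left of 0 in NP-like cells, Tagln lies right of 0 in endothelial-like cells, and Tagln2 lies right of 0 in chondrocyte-like and neutrophil-like cells.

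Chondrocyte-like cells showed the widest spread between members. Their P10 cells lay in clusters 0, 2, 3, 4, 5 and 7 and nearly all 8-week cells in clusters 21, 24 and 26, so the ages are compared across different clusters. Acta2 was 70.9 CPM at P10 and 5.52 at 8 weeks (log2 ratio -3.68, -3.94 to -3.44). The latter was below the 21.1 CPM of neutrophil-like cells of that age, which rested on 6 UMIs (7.75 to 45.9). Macrophage-like cells of 8 weeks had 0 Acta2 UMIs (up to 9.93 CPM). The P10 level of chondrocyte-like cells came mainly from clusters 5 and 2, at 156 and 114 CPM, while cluster 7 had 8.06. Actg2 was 2.23 CPM at P10 (216 UMIs in 95 cells) and 0.247 at 8 weeks (6 UMIs), a log2 ratio of -3.18. Tagln was 16.4 and 11.4 CPM (-0.53). Tagln2 went the opposite way, at 54.8 CPM at P10 and 192 at 8 weeks (1.81, 1.75 to 1.86). With 4 measurable members, 2 were at least 2-fold lower and 1 higher, where 5.92% of all genes were lower and 28% higher by that much. At the coarser clustering resolution of 0.5 the Acta2 ratio was -2.95, while Actg2 was at 0.0024 and Tagln2 at -1.56, so the calls of these 2 genes depend on the clustering.

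The Tagln2 ratio in chondrocyte-like cells rested on 1 cluster at each age. Cluster 7 of P10, whose leading genes include the joint interzone gene Gdf5, had 342 CPM in 296 cells, and cluster 24 of 8 weeks, led by the matrix gene Cilp, had 350 CPM in 838 cells. These were 2 similar levels, in 296 of 4629 cells at the first age and 838 of 1577 at the second. The remaining clusters lay between 13.1 and 87.9 CPM. Without clusters 7 and 24 the Tagln2 level was 28.7 CPM at P10 and 20.1 at 8 weeks, and the log2 ratio turned to -0.51 (-0.71 to -0.32).

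In the tendon fibroblast-like class, named from outer annulus markers, 1 of 3 members passed 2-fold, where 6.25% of genes were lower and 15.6% higher. All P10 cells lay in cluster 6 and 845 of the 847 cells of 8 weeks in cluster 23. Acta2 was 61.8 CPM at P10 and 10.5 at 8 weeks (-2.56, -2.84 to -2.30), while Tagln2 was 233 and 169 CPM (-0.47) and Tagln 6.63 and 7.45 CPM. A UMI of Acta2 was found in 44.7% of the P10 cells (median 15432 UMIs) and 11.1% of those of 8 weeks (median 13721), against 7.55% and 9.52% of neutrophil-like cells (median 3903 and 3587). Thinned to 2000 UMIs the shares were 12.7% and 2.66% in the tendon fibroblast-like class, with 12 and 20 cells left out. In neutrophil-like cells they were 4.72% and 4.44%, with 32 and 18 left out. The 4.44% was 2 of 45 cells (0.543 to 15.1%), too few to place the 8-week tendon fibroblast-like share against background. In hypertrophic chondrocyte-like cells 0 of 3 members passed, where 5.36% of genes were lower and 24.4% higher. Here too the ages lay in different clusters, 413 of 417 P10 cells in cluster 8 and nearly all 8-week cells in clusters 20, 22 and 25, and Tagln2 passed 2-fold at resolution 0.5 (-1.20) and Acta2 at resolution 2 (-1.13). Summed over all kept cells, the ratios were 0.20 for Tagln, 0.19 for Acta2 and 0.59 for Tagln2, opposite in sign to those within NP-like cells, which were 305 of 6999 kept cells at P10 and 2307 of 6342 at 8 weeks.

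Tagln and Acta2 varied together across groups and within NP-like cells. Over 21 class-by-age groups of at least 20 cells, on a log2 scale of CPM plus 10, their Pearson correlation was 0.91, compared with 0.43 for Tagln and Tagln2. These groups share 2 libraries and are not independent. Over single NP-like cells the correlation of Tagln with Acta2 was 0.51 at P10 (305 cells) and 0.27 at 8 weeks (2307 cells), and that of Tagln with Tagln2 0.08 and -0.01. In thinned cells with a Tagln UMI, Acta2 was found in 79.5% at P10 (89 of 112) and 51.4% at 8 weeks (143 of 278), against 63.6% and 39.4% of cells without a Tagln UMI. Tagln2 was found in 66.1% and 38.5% of cells with a Tagln UMI and in 58.2% and 39.0% of those without.

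**Figure D5:**
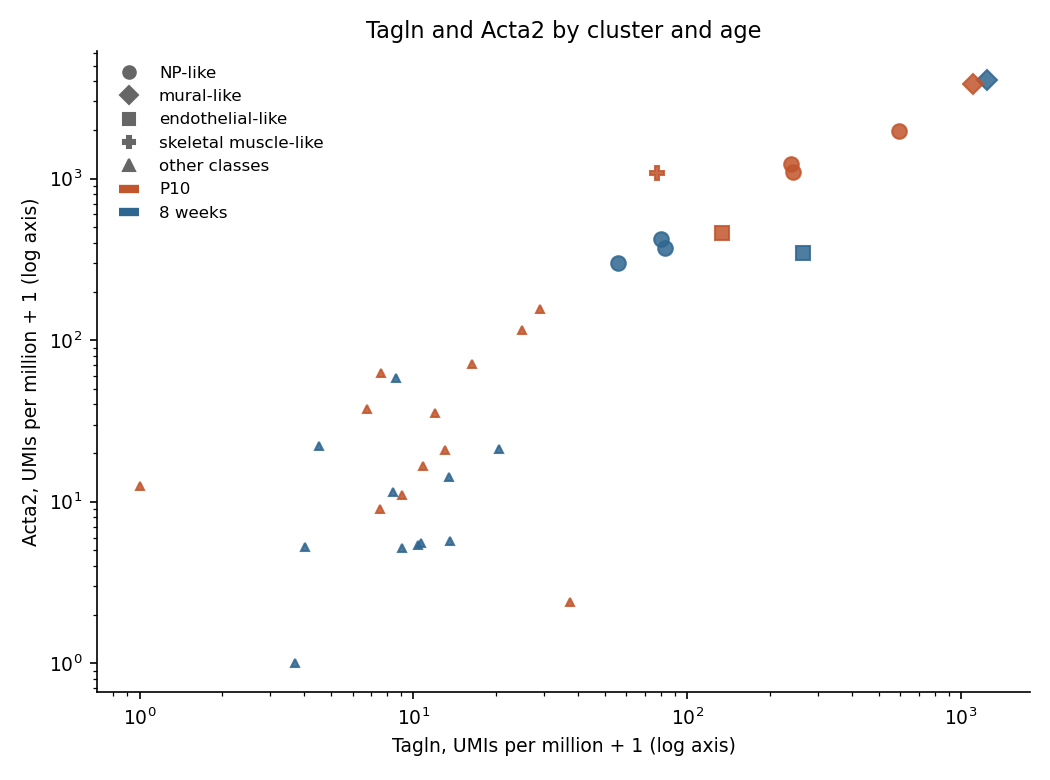
Tagln against Acta2 over 34 cluster-by-age groups of at least 20 cells, both in CPM plus 1 on log axes; colour gives the age and symbol the class. NP-like clusters of P10 lie between the mural-like groups and the NP-like clusters of 8 weeks, and the skeletal muscle-like group (1076 of Acta2 and 76.2 of Tagln) lies above the others of its Tagln level.

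The genes whose level over these 21 groups was most like each member's were then listed. For Tagln they were Acta2 (0.91), the sodium pump subunit Atp1b2 (0.88), the estrogen receptor Gper1 (0.88), the laminin receptor Bcam (0.88) and the smooth muscle myosin Myh11 (0.87). For Acta2 they were Tagln, the tropomyosin Tpm2 (0.88), the anchoring protein Akap6 (0.85), the actin-filament protein Nexn (0.85) and the kinase Mark1 (0.83). For Tagln2 they were the lipase Pnpla2 (0.87), the actin-sequestering thymosin Tmsb4x (0.86), Ubxn1 (0.85), Pdlim1 (0.85) and Gnb2 (0.85), of which none was on the lists of Tagln or Acta2. For Actg2 they were Mnd1 (0.95), Pawr (0.95), Serpini1 (0.94), Rbpms2 (0.93) and Rasl12 (0.93). These correlations rest on the mural-like groups, at 150 and 154 CPM of Actg2, the latter all from 1 cell. The next highest level was 7.15 CPM, in the endothelial-like cells of P10. Tagln3 spanned only 0.22 log2 units over the groups, too little for a pattern. Among single P10 NP-like cells, Tagln went most with Acta2, the myosin light chains Myl9 (0.49) and Myl6 (0.43), Car3 (0.41) and Kctd12 (0.41), and Acta2 with Myl9 (0.54), Tagln, Vim (0.51), Krt80 (0.47) and Ptn (0.47).

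A list of 41 contractile and actin genes was set beside the members in NP-like cells. Of these, 35 had at least 100 UMIs, 9 were at least 2-fold lower at 8 weeks and 3 at least 2-fold higher, beside the 2.86% and 15.2% of all genes; the list's median log2 ratio was -0.31 and that of all genes 0.35. By UMI number the 12 leading genes were Actb, Actg1, Myl6, Palld, Pfn1, Cfl1, Tpm1, Tpm4, Fhl1, Actn4, Csrp1 and Ckb. Tpm1 (-1.06), a filament-stabilising tropomyosin, and Csrp1 (-1.09), a LIM protein of smooth muscle, were lower along with Actg1, whereas creatine kinase Ckb was higher (1.26), and Myl6 (-0.90), Cfl1 (-0.64), Tpm4 (-0.57), Actn4 (-0.10), Pfn1 (0.18), Fhl1 (0.32) and Palld (0.51) did not pass 2-fold. Outside these 12 and picked after their values were seen, Myl9 was at 107 and 7.63 CPM (-3.81) and Cnn2 at 85.3 and 6.70 (-3.67), differences larger than that of Tagln, while the smooth muscle myosin Myh11 stood at 9.03 and 26.6 CPM (1.56) and the myosin kinase Mylk at 24.6 and 57.9 (1.24). Smooth muscle genes differed in both directions in these cells.

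The regulators of smooth muscle transcription did not pass 2-fold in NP-like cells. Of 12 in the matrices 11 were measurable, with 0 lower and 0 higher, beside the 2.86% and 15.2% of all genes, and a median log2 ratio of 0.56 beside 0.35 for all genes. With so few genes a count of 0 is near that background. Srf, the serum response factor gene itself, was at 27.2 and 28.6 CPM (0.07, -0.16 to 0.30), and the coactivator gene Myocd at 9.18 and 8.91 (-0.04, -0.43 to 0.37). Klf4, a repressor of smooth muscle genes in other settings, was at 240 and 455 CPM (0.92), Tead1 at 99.1 and 146 (0.56), Rbpj at 43.1 and 72.7 (0.75) and Yap1 at 34.7 and 58.7 (0.76). The other measured regulators had 0.99 (Elk1), 0.68 (Mkl2), 0.33 (Smad3), 0.10 (Mkl1) and -0.11 (Foxo4).

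Because Tagln and Acta2 varied together, the promoter windows of the members were read for CArG boxes, on both strands, from 250 bases before to 50 after each start (RefSeq, GRCm38.p6). Windows were given for Tagln2, Tagln3 and Acta2. None was given for Tagln or Actg2, so the promoters of Tagln and Acta2 could not be compared. A full CArG box lay in none of the 3, and in 1.63% of all 32851 windows. The Acta2 window held 2 boxes in which 1 core base was replaced by C or G, a form with at least 1 match in 8.50% of windows and at least 2 in 0.679%. The 2 stretches of 30 bases are shown with the box in capitals, at chr19:34255438-34255467 and chr19:34255388-34255417 on the minus strand.
Acta2, 84 bases before the start: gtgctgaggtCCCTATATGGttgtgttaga
Acta2, 34 bases before the start: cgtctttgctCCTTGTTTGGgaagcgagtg
RefSeq puts both before the start, and GENCODE, with an earlier start, puts both inside an untranslated stretch. A match says only that these letters are present.

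The reporter marks cells in which the Tagln promoter drove Cre around the tamoxifen dose at postnatal day 5, and their descendants, and does not read the Tagln level at sampling. The exogenous matrices count WPRE4, an element often placed in reporter transcripts, with 24783 UMIs over kept cells at P10 and 118819 at 8 weeks, and TDT, the tdTomato sequence, at 218 and 1435. The share of cells with at least 10 WPRE4 UMIs was 66.6% (P10) and 56.0% (8 weeks) in the NP-like class, 58% and 54.8% in the mural-like class, and 0 of 159 and 0 of 63 cells in the shallower neutrophil-like class. In chondrocyte-like cells, with a median depth of 19160 and 13322 UMIs, the share was 0.583% and 0.571%. Endothelial-like cells lay between, at 18.5% and 18.3%, as did the skeletal muscle-like cells of P10, at 12.7% (7 of 55). At P10 the 203 NP-like cells with at least 10 WPRE4 UMIs held 488 CPM of Tagln and 1747 of Acta2, and the 102 cells below that threshold 196 and 1023; their median depths were 18342 and 14751 UMIs. The log2 ratios were 1.31 for Tagln (1.16 to 1.47), 0.77 for Acta2 (0.70 to 0.84) and -0.13 for Tagln2 (-0.23 to -0.03). At 8 weeks, between 1291 and 1016 cells, they were 0.23 (0.13 to 0.33), 0.37 (0.32 to 0.41) and -0.18 (-0.23 to -0.13). The intervals of the 2 ages did not overlap for Tagln or Acta2, but the NP-like cells of the 2 ages lay largely in different clusters. Among cells with at least 5000 UMIs the Tagln ratios were 1.33 and 0.23. In mural-like cells Tagln was 1553 against 266 CPM at P10 (29 and 21 cells) and 1531 against 893 at 8 weeks (17 and 14 cells). All 82 and 39 Actg2 UMIs of mural-like cells lay in those above the threshold. In endothelial-like cells the log2 ratios were 2.07 (1.73 to 2.41) and 1.67 (1.42 to 1.91) for Tagln and 2.09 and 2.48 for Acta2. The cells above and below the threshold numbered 22 and 97 at P10 and 23 and 103 at 8 weeks. Those above were deeper, with median depths of 43793 against 12499 UMIs at P10 and 28408 against 9977 at 8 weeks.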

How the data were processed

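Per the file headers, the authors made the matrices with Cell Ranger 3.1.0. Per the submitters' processing notes the build was mm10 and Seurat 3 was also used, its role not given in the sources used here. Raw UMI counts were deposited for each age, in a gene matrix and in a matrix of added transgene sequences. Other content, the names of cells and of genes, was deposited as text lists. Kept cells had 500 or more genes, 1000 or more UMIs and no more than 15% mitochondrial UMIs. Scrublet in Scanpy 1.11.5 (expected rate 6%) removed 139 cells of 8 weeks (2.14%) and 0 of P10, where it did not work. The 2 libraries entered a single clustering with no batch correction (2000 variable genes without the 5 members and hemoglobin, mitochondrial, Xist, Tsix and Y-linked genes, 30 principal components, 15 neighbours, Leiden resolution 1), giving 27 clusters. A name needed 3 or more markers present in 25% of the cluster's cells and 2-fold above all other cells; chondrocytes needed 8 markers in 50% of cells, and with those present a name other than NP needed at least 50% of its list. The 10 leading genes were checked.

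Members, lists and thresholds were chosen with earlier results of these data known. The naming rule was adjusted after cluster names and sizes, but not member levels, were seen, and the 5000-UMI minimum, the WPRE4 threshold and the limit of 10% of cells for a marker of another class were set after seeing the data. Named were the 5 members, the 5 genes most correlated with each over groups (genes with at least 500 UMIs) and with Tagln and Acta2 over P10 NP-like cells (log-scaled UMIs, genes in at least 10% of cells), and up to 12 genes of each list by UMIs. Level intervals are exact Poisson, shares Clopper-Pearson and ratios conditional binomial; a share of 0 is given the limit of 3 counts. UMI counts were 1 sum per class and age, so no test between ages was run. The ratio calculation was checked on simulated counts with known ratios. Thinning used a hypergeometric draw of 2000 UMIs from each cell, gene by gene. Alternatives covered scaling, resolutions 0.5 and 2, separate clustering, gene exclusion, thinning, means over cells, cell and doublet filters, the UMI minimum and a marker gate. No column was left out for lack of a sample.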

Additional observations from a re-analysis of the deposited data

Results flagged for a closer look

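In 4 instances a member's log2 ratio of 8 weeks over P10 had the opposite sign to that in NP-like cells, with both counting intervals clear of 0; with 1 library per age the difference was not tested. Tagln had 0.99 in endothelial-like cells against -2.38 in NP-like cells. Tagln2, at -0.99 in NP-like cells, had 1.81 in chondrocyte-like cells (but -0.51 without clusters 7 and 24 and -1.56 at resolution 0.5, the same sign as in NP-like cells), 0.83 in neutrophil-like cells (251 and 447 CPM, 159 and 63 cells) and 0.33 in connective fibroblast-like cells (474 and 596 CPM, 284 and 23 cells).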

How the results depend on the processing

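Across 32 results and 239 alternative values, 22 had the opposite sign to the reported value. Of these, 4 belong to ratios whose counting interval excluded 0, and 18, down to -1.11, to ratios whose interval held 0, 16 of them in mural-like cells. Apart from the 4, 147 values lay within the counting interval of the reported value and 88 outside it. In NP-like cells no alternative changed a sign. Relative to the median gene the log2 ratios were -2.74 for Tagln, -2.31 for Acta2 and -1.35 for Tagln2, and with each library clustered on its own -2.23 for Tagln and -1.89 for Acta2. Acta2 had -2.03 with a doublet score limit of 0.25 and -2.03 without cells bearing markers of another class. Tagln2 had -1.06 after thinning to 2000 UMIs and -0.93 as a mean over cells. In cluster 16 alone (added after seeing the data) the ratios were -1.61, -1.37 and -0.93, and in cluster 9 alone -2.12 for Tagln and -2.05 for Acta2. The Tagln share of transgelin UMIs was 42.9% at P10 after thinning and 46.0% as a mean over cells, and at 8 weeks 22.7% with separate clustering, 23.0% after thinning and 23.8% as a mean over cells. The 4 were among the 185 values outside the main NP results: Tagln2 in chondrocyte-like cells had -1.56 at resolution 0.5 and -0.51 without clusters 7 and 24, Actg2 there 0.0024 at resolution 0.5, and Tagln2 in hypertrophic chondrocyte-like cells 0.16 at resolution 2. The cause was not tested. The gate of at least 4 mural markers per cell took 1440 and 1389 cells, of which 49 and 30 were mural-like, so its levels (56.0 and 46.5 CPM of Tagln) do not describe mural cells. The percent of genes 2-fold lower in NP-like cells was 4.97 with a minimum of 20 UMIs and 9.03 with 1. No paired analysis was possible because the matrices carry no sample or replicate numbers. Depth limits Tagln3 and Actg2, which have under 5 UMIs per age in NP-like cells, and every value of the classes under 100 cells.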
